A study of Homo sapiens with 12 samples.

Results

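Human genes that are transcribed without a single intron were examined in THP-1 cells, an acute myeloid leukaemia line with monocytic features. The 150 genes described here are autosomal protein-coding genes of GENCODE v29 whose every annotated transcript has 1 exon. Replication-dependent histone genes (names beginning HIST1H to HIST4H), ZNF genes, JUN, JUNB, JUND, IER2, IER5, HEXIM1 and SERTAD genes were left out by name. A gene also needed at least 120 counts over the 12 libraries in its most counted row, so the members were chosen in part on these counts, and their level is a description. The count table had rows for 57096 human genes. The annotation held 825 single-exon autosomal genes after the exclusions by name. Of these, 641 fell under the minimum, 497 of them at 0 counts, and 34 had no row. Totals of the members ran from 121 to 100005 counts, with a median of 1308. The members nearest the minimum were RPEL1 with 121 counts and TAF1L with 124, and the nearest genes outside it were RPRML with 119 and LENG9 with 102.

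The cells had been treated for 2 hours with 1 of 3 inhibitors or with the vehicle DMSO, and 4-thiouridine was present at 1 mM for the last 10 minutes. The kinases known to be inhibited are CDK9 for AZ5576, CDK12 with CDK13 for THZ531, and CDK7 for YKL5124. No dose is stated in the labels. Each of the 4 groups held 3 libraries made from the 3′ ends of polyadenylated RNA, with Drosophila S2 material added as a spike-in (5%). The labels do not say that the 3 libraries came from separate cultures, so the p-values measure only how far these libraries differ among themselves, and that spread may be technical. The control columns of the table carry the name UT and were taken as the DMSO libraries. Only total counts were used, so newly made RNA was not separated from older RNA. All 3 comparisons with DMSO share the same 3 control libraries.

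The libraries held 5048321 to 12743576 human counts, with 1 row per gene. The second AZ5576 library was the shallowest and stood apart from its group on the third principal component, at 29.58 against 4.129 and 2.153. Without it, 59.3% of the members were lower and 7.33% higher than in DMSO, against 60.7% and 6.67% with it. All 11 myelomonocytic markers examined were detected, among them ELANE at a mean of 483 counts per 1000000 human counts (CPM). The T cell genes CD3E, CD3G and CD2 and all 4 erythroid genes were listed at 0.

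Genes without introns skip splicing, the step that removes introns from a transcript before export, and can therefore give a finished messenger soon after the polymerase has passed. CDK7 acts early, as part of the general factor TFIIH, CDK9 releases paused RNA polymerase II into elongation, and CDK12 with CDK13 supports elongation through longer genes. Many human single-exon genes encode regulators of transcription, receptors and signalling proteins, and others are processed copies of messengers from genes with introns.

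Fewer of the counts fell on single-exon genes after each inhibitor. In the DMSO libraries the members held 0.847% ± 0.0132 of the human counts (SD, n = 3). They held 0.546% ± 0.0051 after AZ5576, 0.605% ± 0.0002 after THZ531 and 0.639% ± 0.0123 after YKL5124 (SD, n = 3 each). The lowest DMSO library, at 0.832%, lay above the highest of all inhibitor libraries, at 0.648%. These shares were not tested, because the members were chosen on their total in the same libraries. CITED4, a co-activator that binds CBP and p300, held 12.2% of all member counts, and CITED4, SF3B5 and CEBPA together held 32.7%. The median level in DMSO was 12.7 CPM over the members and 18.3 CPM over 11477 protein-coding genes with 2 or more exons.

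With AZ5576, 91 of the 150 members fell and 10 rose (edgeR quasi-likelihood test, Benjamini-Hochberg adjusted p under 0.05 over 15831 genes). Over all genes tested, 23.1% were called lower and 18.6% higher. The median log2 fold change of the members was -0.63, against 0.01 over all genes tested. With THZ531, 70 members fell and 31 rose, where 32.9% of all genes were called lower and 30.4% higher. The median was -0.31, and the quartiles were -1.31 and 0.23, against -0.66 and 0.39 over all genes tested. With YKL5124, 82 members fell and 8 rose, where 13.5% of all genes were called lower and 7.25% higher, and the median was -0.38. Falls of at least 2-fold were made by 50 members with AZ5576, 45 with THZ531 and 15 with YKL5124, where 8.15%, 17.5% and 2.45% of all genes passed the same rule.

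**Figure D1:**
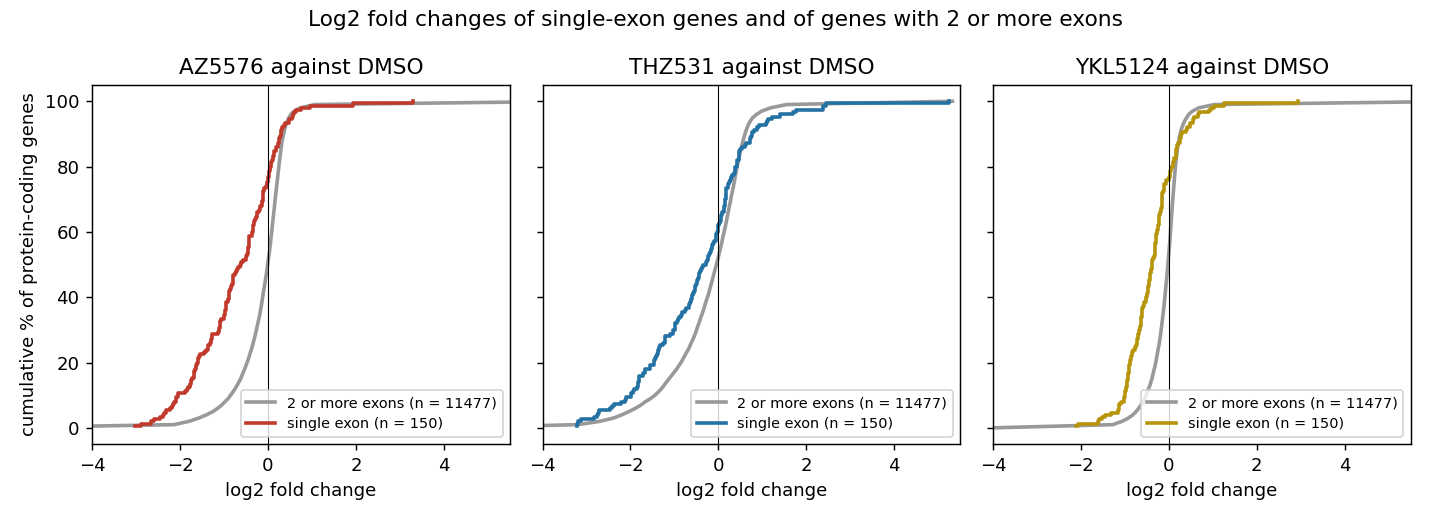
Cumulative percent of protein-coding genes (vertical axis) by log2 fold change against DMSO (horizontal axis) for the 150 single-exon genes (coloured) and 11477 genes with 2 or more exons (grey), 1 panel per inhibitor. The coloured curves lie to the left of the grey ones over most of their course, with medians of -0.63, -0.31 and -0.38, and cross them on the side of the rises.

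The scale of these values is relative. Scaling by TMM factors sets changes against the middle of the human genes. When libraries were scaled to their size only, the median of all genes moved to -0.12 with AZ5576 and -0.29 with THZ531. With scaling to the fly counts it moved to -0.17 and -0.37. The fly scale itself varied among libraries. Fly counts were 2.84% to 3.57% of the human counts, all rows summed, in DMSO. They were 3.19% to 3.74% with AZ5576 and 3.20% to 3.43% with THZ531, so the groups overlapped. With THZ531, calls made anew over all members gave 16 higher and 91 lower with library size alone, and 13 and 92 with fly scaling. With AZ5576 the members called were 3 higher and 96 lower with library size alone, and 2 and 97 with fly scaling.

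Single-exon genes are short from end to end, and short genes with introns were counted beside them. Among 819 protein-coding genes with 2 or more exons and a span under 5 kb, 244 were higher and 218 lower with AZ5576, 370 higher and 205 lower with THZ531, and 54 higher and 169 lower with YKL5124. Their medians were 0.06, 0.19 and -0.00. The difference between them and the members was not tested. The 16 single-exon genes left out by name that had at least 120 counts held 1 higher and 5 lower with AZ5576, and 11 higher and none lower with THZ531. Over all genes tested, 18.6% were called higher and 23.1% lower with AZ5576, and 30.4% and 32.9% with THZ531. Most of the 16 were replication-dependent histone genes, and the rest were HEXIM1, IER5, JUN and JUNB, so they do not stand for single-exon genes at large.

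The members differed by whether their sequence recurs elsewhere. Of the 150, 29 shared a stretch of at least 100 bases at 95% identity or more with a transcript of another gene. Such a match is called a near-identical copy here, although it need not span the gene. The longest match listed was 118 of 2786 bases in C9orf66 and 131 of 3720 in WDR5B. Reads from such stretches cannot be assigned to 1 gene with certainty. Not all of these stretches reached the last 100 bases of the member's transcript, where reads of 3′ ends are expected. Of these 29, 6 rose and 7 fell with AZ5576, with a median of -0.02. Of the 121 without such a copy, 4 rose and 84 fell, with a median of -0.85. With THZ531 the medians were 0.15 and -0.44, and with YKL5124 0.00 and -0.44. This split was added after the values had been seen. Copies of abundant messengers had values both near to and away from those of the parent gene with introns. NACA2 had log2 fold changes of 0.22, 0.43 and 0.03 with AZ5576, THZ531 and YKL5124, and its parent NACA, a chaperone of nascent chains, had 0.29, 0.55 and 0.11. EIF5AL1 had 0.36, 0.76 and 0.27, and the translation factor gene EIF5A had 0.33, 0.67 and 0.06. UQCRHL had 0.08 with THZ531, where UQCRH, a gene of the respiratory chain, had 0.51. PABPC3 had -0.02 with AZ5576, where PABPC1, a poly(A)-binding protein gene, had 0.36. With library size alone, the THZ531 call of NACA2 was lost (0.14, adjusted p = 0.0643), and the AZ5576 calls of NACA2 and EIF5AL1 were lost (log2 fold changes 0.10 and 0.24). The shared stretch reached the last 100 bases in NACA2 and UQCRHL but not in EIF5AL1 or PABPC3. Whether reads of the parent gene were counted on the copy was not tested.

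**Figure D2:**
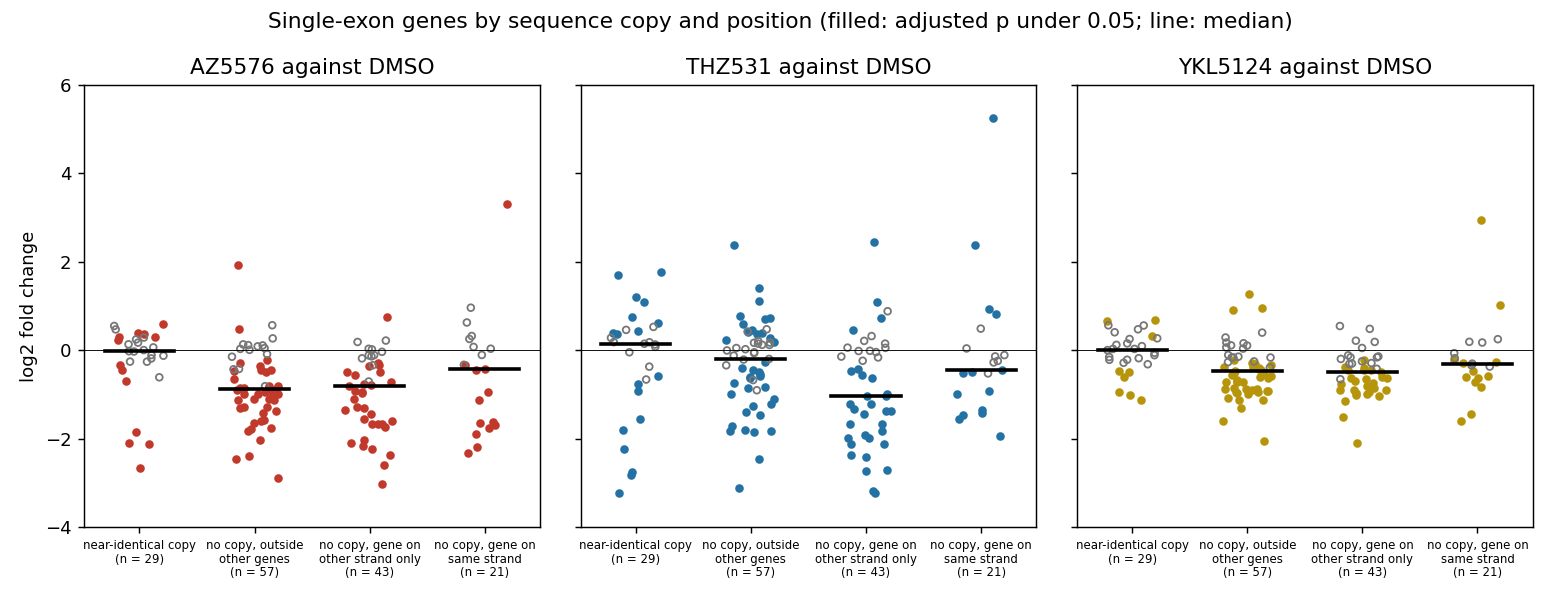
Log2 fold change against DMSO (vertical axis) of each single-exon gene, in classes by near-identical copy and, for genes without one, by position in the annotation. Filled points have an adjusted p under 0.05, open points do not, and lines are medians: with THZ531 the median was -0.20 for genes outside other genes and -1.03 for genes with another gene on the opposite strand only.

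By position in the annotation, the medians lay farthest apart with THZ531, and the differences between these classes were not tested. Among members without a copy, the 57 that lay outside any other gene had 14 rises and 24 falls and a median of -0.20. The 43 with another gene on the opposite strand only had 4 rises and 27 falls and a median of -1.03. The 21 with another gene on the same strand lay between, with 4 rises, 10 falls and a median of -0.44. With AZ5576 the 3 classes had medians of -0.88, -0.80 and -0.43, and with YKL5124 -0.47, -0.49 and -0.30. DDX28, TIGD5, C6orf47 and EXOC8 are of the second kind. The strand setting of the counts is not given in the sources used here, so reads of a gene and of one on the other strand may not be told apart. For TIGD5 the log2 fold change with THZ531 was -2.12, while EEF1D on the other strand had 0.41. In other pairs the gene on the other strand also fell: DUS2 had -2.14 with THZ531 beside -3.23 for DDX28, and SPRTN had -1.95 with AZ5576 beside -2.60 for EXOC8. By transcript length, the 45 members under 2 kb had a median of 0.15 with THZ531, the 62 of 2 to 4 kb -0.58 and the 43 over 4 kb -0.57.

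The members were grouped by role in small lists, none of which was tested against other genes. Over all members 60.7% fell with AZ5576, 46.7% with THZ531 and 54.7% with YKL5124, and the counts of each list stand beside these shares. Among 15 transcription factors and co-regulators, 11 fell and 1 rose with AZ5576, 9 fell and 4 rose with THZ531, and 11 fell and 2 rose with YKL5124. CEBPA, which directs myeloid differentiation, was the most abundant of them. Its TMM-scaled level was 904, 897 and 904 CPM in DMSO, 602, 623 and 602 under AZ5576, 448, 450 and 423 with THZ531, and 705, 577 and 650 with YKL5124. No inhibitor library reached the lowest DMSO library, and THZ531 was the lowest group. The log2 fold changes were -0.57 ± 0.06, -1.03 ± 0.06 and -0.49 ± 0.06 (SE), with adjusted p of 8.34e-09, 5.54e-15 and 3.63e-07 in edgeR's quasi-likelihood test.

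Its relatives CEBPB and CEBPD, leucine zipper factors induced in myeloid cells, were higher in THZ531 than in AZ5576, with log2 fold changes of 1.12 and 1.32 between these inhibitors (edgeR, adjusted p = 2.29e-08 and 4.73e-13). CEBPD was at 50.7, 53.6 and 51.4 CPM in DMSO, 14.6, 16.2 and 15.2 under AZ5576, 40.8, 38.8 and 34.8 with THZ531, and 24.9, 23.4 and 25.3 with YKL5124. The 4 groups did not overlap, and the order was DMSO, THZ531, YKL5124, AZ5576. Its log2 fold changes were -1.77, -0.45 and -1.08, all past the threshold. CEBPB fell by 1.36 with AZ5576 and by 1.03 with YKL5124 on the log2 scale, and with THZ531 its value was -0.24 (adjusted p = 0.0692).

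SOX4, an HMG-box factor of progenitor cells, moved in opposite directions. It was at 76.0, 70.4 and 74.4 CPM in DMSO, 25.8, 23.0 and 20.3 under AZ5576, 149, 160 and 161 with THZ531, and 41.8, 41.6 and 46.2 with YKL5124. The groups did not overlap. The log2 fold change was -1.68 ± 0.09 with AZ5576, 1.09 ± 0.07 with THZ531 and -0.77 ± 0.08 with YKL5124 (SE). FOXC1, a forkhead factor, had -2.04, 1.12 and -2.06, from a DMSO level of 3.93, 4.76 and 4.80 CPM.

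Other factors fell with every inhibitor. FOXD2 had log2 fold changes of -2.67, -1.55 and -1 with AZ5576, THZ531 and YKL5124, SOX12 had -0.50, -0.63 and -0.40, and FOXL2 had -1.42, -0.49 and -0.88. BHLHE22, a basic helix-loop-helix factor, was at 20.7, 24.3 and 19.9 CPM in DMSO and 4.49, 5.78 and 4.66 in YKL5124. Its fall of 2.11 with YKL5124 was the largest of any named member with that inhibitor, and with THZ531 it had -0.14 (adjusted p = 0.305). PURB, a single-strand binding protein, fell with THZ531 (-0.93) and had 0.03 with AZ5576 (adjusted p = 0.742). FOXD4, FOXD4L1 and FOXD4L6 are near-identical copies, so their separate values are uncertain.

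**Figure D3:**
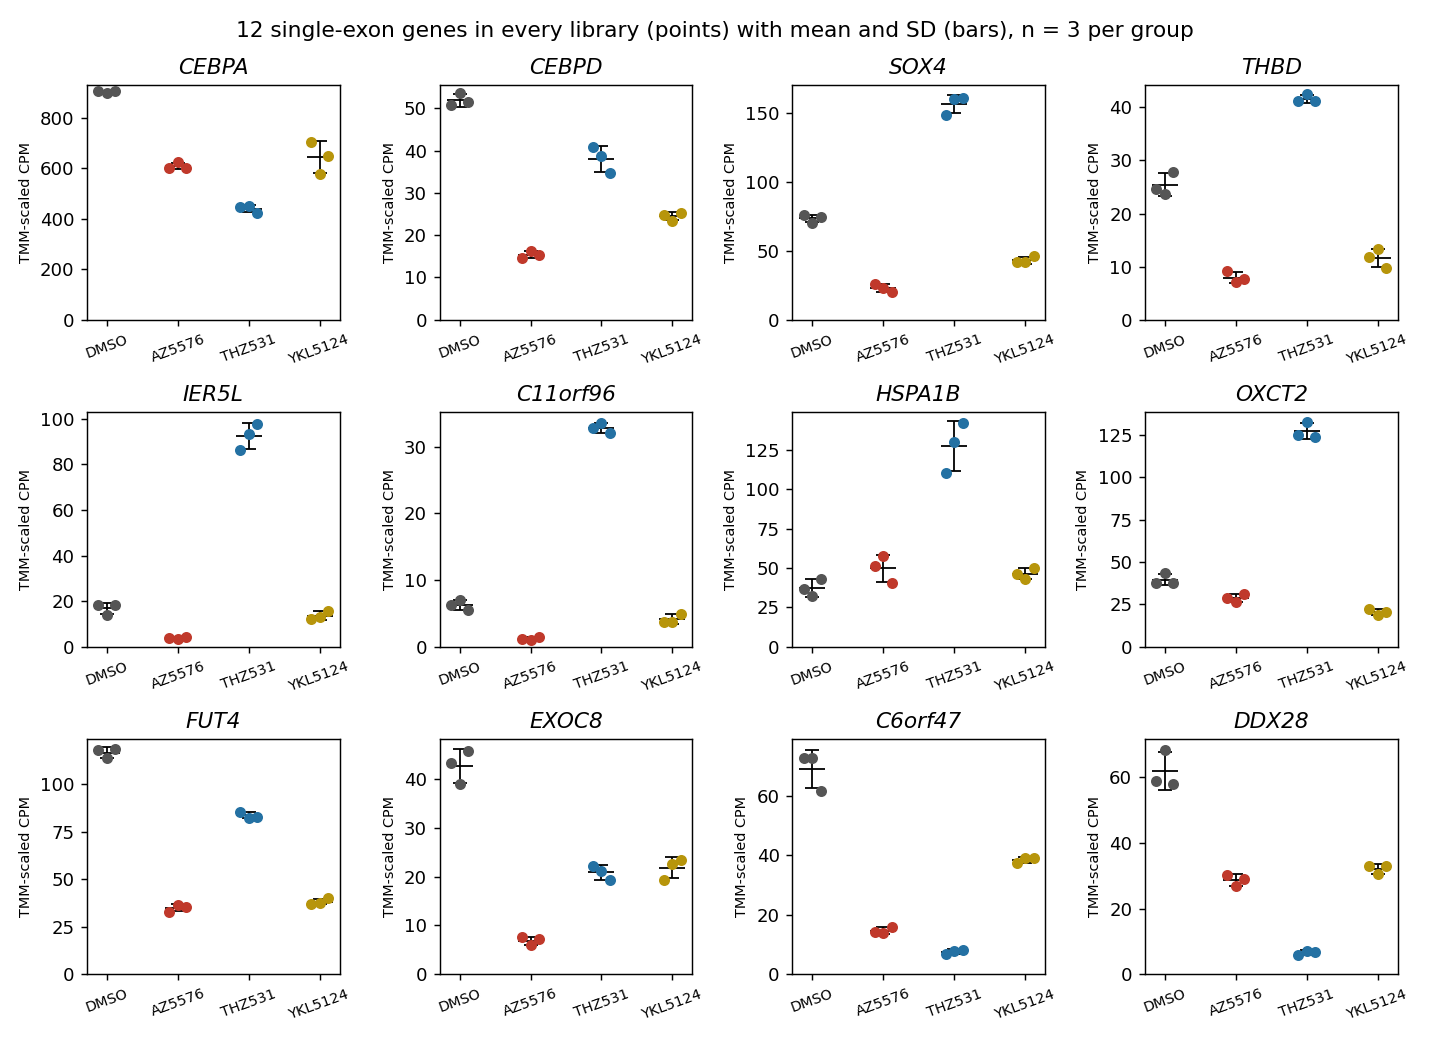
TMM-scaled CPM (vertical axis, from 0) of 12 single-exon genes in every library, by group, with the mean and SD as bars (n = 3). SOX4, THBD, IER5L, C11orf96, HSPA1B and OXCT2 were highest in THZ531, while CEBPA, C6orf47 and DDX28 were lowest there.

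IER5L and C11orf96 had some of the largest rises with THZ531 and fell with AZ5576. IER5L, a relative of the immediate early gene IER5, was at 18.3, 14.1 and 18.3 CPM in DMSO, 3.99, 3.37 and 4.17 under AZ5576, 86.2, 93.4 and 97.7 with THZ531, and 12.1, 13.0 and 15.9 with YKL5124. It fell by 2.10 ± 0.15 with AZ5576 and rose by 2.44 ± 0.10 with THZ531 on the log2 scale (SE), and with YKL5124 it had -0.30 (adjusted p = 0.0654). C11orf96 was at 6.30, 7.04 and 5.58 CPM in DMSO, 1.12, 0.991 and 1.5 under AZ5576, and 32.8, 33.5 and 32.0 with THZ531. Its log2 fold changes were -2.32 and 2.38. For both genes the AZ5576 libraries lay below all others and the THZ531 libraries above all others.

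HSPA1B, an inducible heat shock protein of the Hsp70 family, was at 36.8, 32.1 and 43.1 CPM in DMSO and 111, 130 and 142 in THZ531, a rise of 1.77 ± 0.10 (SE). With AZ5576, whose libraries overlapped those of DMSO, and with YKL5124 it had 0.38 and 0.31 (adjusted p = 0.00583 and 0.04). Its near-identical neighbour HSPA1A had 0.40, 0.76 and 0.16 with AZ5576, THZ531 and YKL5124, so the split between the pair is uncertain. The stretch they share did not reach the last 100 bases of the HSPA1B transcript, and whether reads were shared was not tested. RHOB, a small GTPase, was at 3.11, 2.76 and 2.28 CPM in DMSO, 1.60, 1.39 and 1.59 under AZ5576, and 7.42, 7.28 and 7.06 with THZ531. It rose by 1.41 with THZ531 on the log2 scale and fell by 0.80 with AZ5576 (adjusted p = 0.01).

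OXCT2, a ketone body enzyme known from testis, was at 37.8, 43.2 and 37.4 CPM in DMSO, 29, 26.3 and 30.9 under AZ5576, 125, 133 and 124 with THZ531, and 22.4, 18.7 and 20.6 with YKL5124. The gene lies inside the span of BMP8B on the same strand, and BMP8B had a log2 fold change of -1.12 with THZ531 while OXCT2 had 1.69. EID3, which encodes an inhibitor of p300, had raw counts of 2, 1 and 2 in DMSO, 1, 6 and 1 under AZ5576, 50, 56 and 40 with THZ531, and 2, 2 and 0 with YKL5124. Of its 163 counts, 89.6% came from THZ531, so it passed the minimum only through that group, and its fitted log2 fold change of 5.25 rests on a handful of control counts. EID3 lies inside the span of TXNRD1 on the same strand. Without the group in which they were highest, 9 of the 150 members would have missed a minimum reduced in proportion to the libraries left. For 5 of them that group was DMSO.

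TAS2R4, named for a bitter taste receptor, rose with AZ5576 and YKL5124. Its raw counts were 9, 7 and 7 in DMSO, 92, 28 and 68 under AZ5576, 1, 0 and 3 with THZ531, and 49, 46 and 56 with YKL5124. The log2 fold changes were 3.31, -1.95 and 2.94. The gene lies inside the span of SSBP1 on the same strand, without touching its exons, and whether the reads came from the TAS2R4 messenger was not tested. DCAF4L1, a WD-repeat gene, had 1.94, -1.40 and 1.26, so its direction with THZ531 was also opposite to the other inhibitors.

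Promoters of 3 members that rose with THZ531 and 2 that fell are shown as reference sequence, as examples of both directions chosen after the values had been seen. Of the 2 that fell, EXOC8 had -1.04 with THZ531 and fell further with AZ5576. The windows are the 140 bases before the RefSeq start on GRCh38.p14, 5′ to 3′ on the strand of the gene: IER5L at chr9:129178262-129178401 (minus), RHOB at chr2:20446934-20447073 (plus), HSPA1B at chr6:31827598-31827737 (plus), C6orf47 at chr6:31660779-31660918 (minus) and EXOC8 at chr1:231337853-231337992 (minus). Capitals mark any match, on either strand, to 6 motifs, a list chosen after the values had been seen: the CCAAT box, the TATA box as TATAAA, the GC box as GGGCGG, the cyclic AMP element as TGACGTCA, a pair of heat shock units as GAANNTTC (N for any base) and the ETS core as TTCCGG. None of the motifs contains another.
IER5L: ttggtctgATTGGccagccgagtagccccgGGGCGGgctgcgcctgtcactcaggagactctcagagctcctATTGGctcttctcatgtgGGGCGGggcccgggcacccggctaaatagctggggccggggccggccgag
RHOB: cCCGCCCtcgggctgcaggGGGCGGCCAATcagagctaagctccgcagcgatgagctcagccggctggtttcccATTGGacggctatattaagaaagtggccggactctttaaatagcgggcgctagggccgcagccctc
HSPA1B: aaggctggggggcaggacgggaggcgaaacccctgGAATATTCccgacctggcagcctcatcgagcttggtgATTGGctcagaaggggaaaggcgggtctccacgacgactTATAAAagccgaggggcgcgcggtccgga
C6orf47: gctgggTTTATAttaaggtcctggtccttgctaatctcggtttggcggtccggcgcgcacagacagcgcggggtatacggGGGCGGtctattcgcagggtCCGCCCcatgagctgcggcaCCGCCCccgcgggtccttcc
EXOC8: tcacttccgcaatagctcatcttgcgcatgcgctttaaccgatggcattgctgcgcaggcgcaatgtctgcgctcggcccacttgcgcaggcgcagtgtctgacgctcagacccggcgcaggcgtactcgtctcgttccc
IER5L and RHOB hold 2 CCAAT matches and 2 GC boxes each. HSPA1B holds the TATA box, the CCAAT box and the heat shock pair. C6orf47 holds GC boxes and a TATA box on the other strand, and EXOC8 holds none of the 6.

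Promoters from 250 bases before to 50 after the start were matched by symbol for 107 of the 150 members, and 96 of these starts lay within 500 bases of the GENCODE start. CCAAT stood in 35.7% of all 27305 promoters in the table, in 17 of 22 members that rose with THZ531 (77.3%) and in 18 of 56 that fell (32.1%). Among other protein-coding genes it stood in 37.6% of those that rose and 37.7% of those that fell. The risen set depends on TMM scaling. SF3B5, ADRB1, KBTBD6 and NACA2, all with CCAAT, lost their call with library size alone or fly scaling. The 22 also include members with a near-identical copy, such as NACA2 and OXCT2, whose reads may belong to another gene. TTCCGG stood in 17.6% of all promoters, in 13.6% of the members that rose and in 33.9% of those that fell. Among other protein-coding genes it stood in 31.5% of those that rose and 33.2% of those that fell. GGGCGG stood in 44.6% of all promoters, 59.1% of the risen and 73.2% of the fallen members. It stood in 73.2% of other protein-coding genes that rose and 69.1% of those that fell. For TTCCGG and GGGCGG the shares of the fallen members thus lay near those of other fallen genes. TATAAA stood in 12% of all promoters, 13.6% of the risen and 7.14% of the fallen members. In the same order, GAANNTTC stood in 6.87%, 9.09% and 1.79%, and TGACGTCA in 1.98%, 4.55% and 3.57%. These are matches of letters, and none of the shares was tested.

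The deepest falls with THZ531 were in genes of varied function. C6orf47 was at 72.8, 72.8 and 61.6 CPM in DMSO, 14.2, 13.7 and 15.8 under AZ5576, 6.64, 7.72 and 8.13 with THZ531, and 37.2, 39.1 and 38.9 with YKL5124. The 4 groups did not overlap, and the log2 fold changes were -2.23 ± 0.09, -3.19 ± 0.11 and -0.84 ± 0.08 (SE). DDX28, a mitochondrial RNA helicase, was at 59.1, 68.5 and 58.1 CPM in DMSO and 5.73, 7.17 and 6.74 in THZ531 (log2 fold change -3.23), and had -1.09 with AZ5576 and -0.94 with YKL5124. MOCS3, which serves molybdenum cofactor synthesis and the thiolation of tRNA, had -3.12 with THZ531 and -0.80 with AZ5576. RIMBP3B and its copy RIMBP3 had -3.23 and -2.76 with THZ531, and WDR5B, a relative of the histone methylation subunit WDR5, had -2.83.

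PLPP6, a lipid phosphatase, had the largest fall with AZ5576. It was at 5.63, 6.28 and 6.45 CPM in DMSO and 0.639, 0.792 and 0.835 in AZ5576, a fall of 3.01 ± 0.25 (SE), and it fell by 2.72 with THZ531 and by 0.90 with YKL5124. EXOC8, a subunit of the exocyst, which tethers secretory vesicles, was at 43.4, 39.0 and 45.8 CPM in DMSO, 7.51, 5.94 and 7.10 under AZ5576, 22.3, 21.2 and 19.3 with THZ531, and 19.4, 22.6 and 23.5 with YKL5124. AZ5576 stood below both other inhibitors, which overlapped. KBTBD6 and KBTBD7, adaptors of a CUL3 ubiquitin ligase, had -2.39 and -2.37 with AZ5576. With THZ531 KBTBD7 had -1.36 and KBTBD6 had 0.38 (28.4 to 31.1 CPM in DMSO, 37.5 to 40.7 in THZ531). The latter became 0.09 when scaled by library size and 0.01 by fly counts, where it was not called (adjusted p = 0.404 and 0.94).

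**Figure D4:**
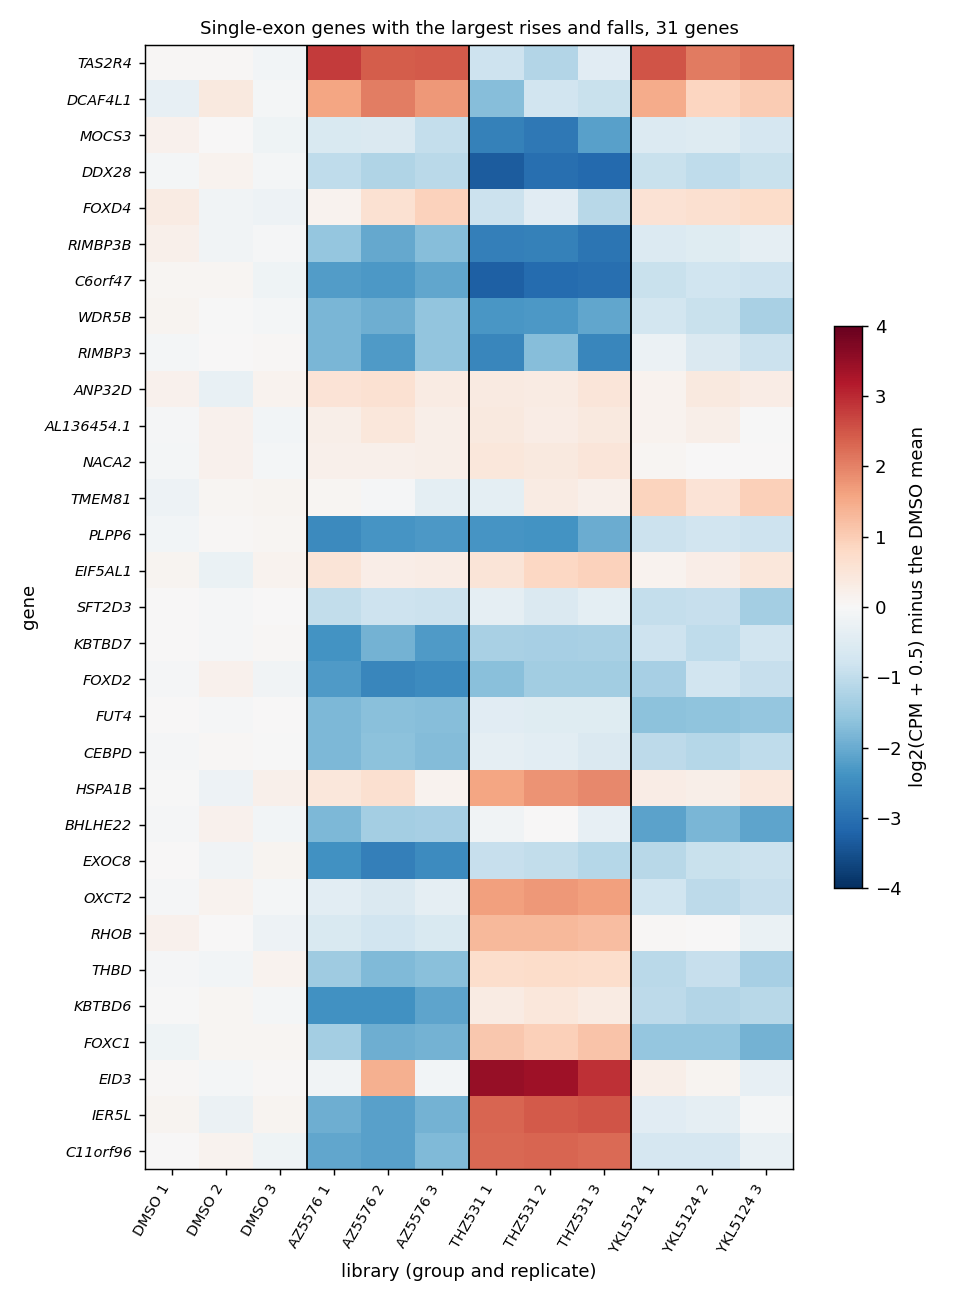
Colour gives log2(CPM + 0.5) of each library minus the DMSO mean, for 31 single-exon genes among those with the largest rises or falls in any comparison (rows, ordered by the difference between THZ531 and AZ5576) and 12 libraries (columns). C11orf96 and IER5L at the foot are blue in AZ5576 and red in THZ531, and the 3 libraries of a group have like colours in most rows.

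The lists of membrane traffic, metabolism, RNA processing and chromatin were drawn up after the values had been seen, so their counts are a description only. The 7 members tied to lysosomes, endosomes and exocytosis fell with THZ531, and 6 of them fell with AZ5576 and with YKL5124. One of the 7, REP15, passed the count minimum only through the DMSO libraries, which held 64 of its 149 counts, and it was the member that did not pass with AZ5576 or YKL5124. HPS6, a subunit of the BLOC-2 complex of lysosome-related organelles, had -1.13, -2.46 and -0.39 with AZ5576, THZ531 and YKL5124, and BLOC1S4 of BLOC-1 had -0.88, -1.86 and -0.86. BORCS6, a subunit of the lysosome positioning complex BORC, had -1.67, -1.99 and -0.74, and the GTPase gene RRAGA, which signals amino acids to mTORC1, had -0.48, -0.83 and -0.42. Of 12 metabolic enzymes and their regulators, 11 fell with AZ5576, 8 with THZ531 and 10 with YKL5124, and 2 rose with THZ531, OXCT2 and GALNT4. GALNT4 had counts identical to the readthrough gene POC1B-GALNT4, so the 2 names share 1 measurement.

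Of 8 genes of RNA processing and ribosome assembly, 7 fell with AZ5576, 6 with THZ531 and 7 with YKL5124. RRS1, a ribosome assembly factor, was at 283, 303 and 316 CPM in DMSO, 160, 149 and 158 under AZ5576, 208, 215 and 242 with THZ531, and 175, 185 and 185 with YKL5124. RIOX1, a ribosomal oxygenase, had -2.16, -2.11 and -0.64, and EXOSC6, a subunit of the RNA exosome, had -0.69, -0.57 and -0.47. EXOSC6 shares sequence with other genes up to its last 100 bases, so its values are uncertain. SMG1, which shares such a stretch, had -0.25, -0.62 and 0.00 with AZ5576, THZ531 and YKL5124. PCBP1, an RNA-binding protein, was the member of this list that passed in none of the 3 (0.02, 0.05 and -0.16). Of 9 members under RNA and translation, 2 rose and 3 fell with AZ5576, 3 rose and 2 fell with THZ531, and none rose and 3 fell with YKL5124. SF3B5, a subunit of the U2 spliceosomal particle, was at 646, 590 and 632 CPM in DMSO and 807, 858 and 904 in THZ531 (log2 fold change 0.46), and with fly scaling this value was 0.09 (adjusted p = 0.535). RBM15B, of the RNA methylation machinery, fell with all 3 (-0.34, -1.38 and -0.44).

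Of 10 chromatin genes and co-regulators, 8 were lower with AZ5576, 7 with THZ531 and 9 with YKL5124. The list holds HASPIN, which passed the count minimum only through DMSO, and EID3, which passed only through THZ531. CITED4 was at 1095, 990 and 1049 CPM in DMSO, 556, 508 and 553 under AZ5576, 872, 880 and 866 with THZ531, and 690, 716 and 766 with YKL5124. No 2 of the 4 groups overlapped, and the log2 fold changes were -0.95, -0.26 and -0.53. FANCF, a Fanconi anaemia protein, had -0.72, -2.36 and -0.99. The linker histones H1FX and H1F0 fell with AZ5576 (-0.49 and -0.30) and YKL5124 (-0.44 and -0.37). With THZ531 they had 0.06 and -0.05 (adjusted p = 0.449 and 0.636), values that became -0.23 and -0.34 with library size alone.

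Cell surface genes moved in both directions. Of 8 G protein-coupled receptors, 5 fell and 1 rose with AZ5576, 3 fell and 2 rose with THZ531, and 6 fell and 1 rose with YKL5124. The 3 falls with THZ531 are 37.5% of the list, near the 32.9% of all genes called lower. ADRB1, the beta-1 adrenergic receptor, was at 79.1, 75.1 and 71.7 CPM in DMSO, 40.4, 40.2 and 44.4 under AZ5576, 89.2, 93.1 and 82.9 with THZ531, and 36.5, 41.8 and 37.2 with YKL5124, so AZ5576 and YKL5124 overlapped and lay below the rest. Its value of 0.23 with THZ531 became -0.06 when scaled by library size and -0.13 by fly counts (adjusted p = 0.495 and 0.371). The Wnt receptor gene FZD9 had -1.37, -1.71 and -0.94. THBD, thrombomodulin, was at 24.7, 23.7 and 27.9 CPM in DMSO, 9.11, 7.13 and 7.60 under AZ5576, 41.3, 42.5 and 41.2 with THZ531, and 11.9, 13.2 and 9.82 with YKL5124. FUT4, the fucosyltransferase that makes the myeloid antigen CD15, was at 118, 114 and 118 CPM in DMSO, 32.9, 36.5 and 35.2 under AZ5576, 85.4, 82.4 and 82.9 with THZ531, and 37.1, 37.6 and 39.9 with YKL5124. It overlaps PIWIL4 on the same strand, which had 0.35, -0.52 and 0.56. The other genes in the list of glycan enzymes, B3GALT6 and MGAT2, had their lowest values with THZ531 (-1.47 and -1.22). GALNT4, placed in the metabolic list, had 0.82 with THZ531.

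The remaining lists were small. Of 5 ubiquitin and BTB-Kelch genes, 3 fell with each inhibitor. KBTBD6 was called higher with THZ531 under TMM scaling but not with library size alone or fly scaling. RNF26, a ubiquitin ligase, had -0.11, -0.56 and -0.22 with AZ5576, THZ531 and YKL5124, the first with an adjusted p of 0.235. Of 3 small GTPases, 2 fell with AZ5576, and with THZ531 RHOB rose and RAP2B fell (-0.40). Of 2 chaperone genes, HSPA1B rose and DNAJC30 fell with THZ531 (1.77 and -1.32). Of 2 mitochondrial genes, MARS2, the methionyl-tRNA synthetase of mitochondria, had -2.18 with AZ5576 and -1.45 with YKL5124 from 2.28 to 2.36 CPM in DMSO. It passed the count minimum only through the DMSO libraries, which held 85 of its 168 counts. Of 2 adhesion genes, AMIGO3 fell with THZ531 (-1.35) and PCDHB13 passed with no inhibitor. Among the abundant members, the selenium enzyme gene SEPHS2 had -0.46, -0.12 and -0.23, and PIGM, a mannosyltransferase of GPI anchor synthesis, had -0.45, -0.99 and -0.28. SFT2D3, a gene of vesicle transport, had -0.96, -0.46 and -1.15.

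Compared directly, THZ531 and AZ5576 differed in 91 members, of which 58 were higher and 33 lower in THZ531. Of all genes, 27.1% were called higher and 27.8% lower in that comparison. C11orf96 was 26-fold higher and IER5L 23.4-fold higher in THZ531 (log2 fold changes 4.70 ± 0.17 and 4.55 ± 0.13, SE), and DDX28 was 4.39-fold lower. SOX4 and KBTBD6 were 6.80-fold and 6.79-fold higher.

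YKL5124 and AZ5576 were closer, with 48 members higher and 8 lower in YKL5124, where 9.6% and 6.23% of all genes were called. Members higher in YKL5124 were led by IER5L (1.80), FOXD2 (1.67) and EXOC8 (1.64), all log2 fold changes. DCAF4L1, BHLHE22 and OXCT2 were lower in YKL5124 (-0.68, -0.55 and -0.50). FUT4 did not pass, at 0.14 ± 0.08 (SE, adjusted p = 0.222). Without the second AZ5576 library, 31.3% of members were higher and 2.67% lower, against 32.0% and 5.33% with it.

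Between YKL5124 and THZ531, 57 members were higher and 47 lower in YKL5124, where 30.5% of all genes were called in each direction. FOXC1 and C11orf96 were 9.07-fold and 7.76-fold lower in YKL5124. RIMBP3B was 6.66-fold and C6orf47 5.09-fold higher. The members thus had a median near 0 in this comparison (-0.01), with values from -5.31 for EID3 to 4.89 for TAS2R4, both from low counts.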

How the data were processed

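The deposited table gave raw whole-number counts of reads for 295100 rows and 12 libraries of THP-1 cells. Per the submitters' processing notes, reads were handled with bcl2fastq 2.17.1.14 and Trim Galore 0.6.5, the builds were dm6 and hg38, and edgeR 3.32.1 is listed too. How reads were aligned and counted, and on which strand, is not given in the sources used. GENCODE v29 named 251529 of 256726 human rows. Rows without a name, 0.655% to 0.719% of each library, stayed out of sizes and tests. The row with the highest total stood for a gene, since rows of a gene overlap. Genes with identical counts were kept once.

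Counts were tested with edgeR 4.0.16 (limma 3.58.1, R 4.3.3) by 1 quasi-likelihood fit of 12 libraries with TMM factors, after filterByExpr (minimum count 10). This left 15831 genes, all 150 members among them. P-values were adjusted by Benjamini-Hochberg over all of them (threshold 0.05). CPM are TMM-scaled, except for cell type markers, which were scaled by library size. The fit was tested on simulated data. DESeq2 1.42.0, other scalings and filters, a replicate block and leaving out each library were alternatives.

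The members and lists were chosen with earlier results of these data known. Named genes are the 7 largest falls and rises per inhibitor against DMSO, and the 3 each way between inhibitors, with at least 5 CPM in a group and no overlap of replicates, plus preset regulators, the 8 highest in DMSO and 2 per role group. Genes named outside it, such as those of the added role lists and TIGD5, were chosen after their values were seen. Some genes of the rule and of the marker lists are not reported here by name, and the counts include them. HASPIN, which the pattern for hyaluronan synthases had taken, was moved out of the glycan enzymes. Same-numbered libraries were not paired, since their deviations had correlations of -0.102 to 0.072. Promoter sequences come from RefSeq (GRCh38.p14).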

Additional observations from a re-analysis of the deposited data

How the results depend on the processing

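Of the alternative values of the main percentages and shares, 294 stayed close to the main value (within 1.5 times, or 1 SD for shares) and 22 did not. Members higher with AZ5576 (6.67%) came to 2.00% with library size alone, 1.33% with fly scaling and 3.31% without near-identical copies, the last chosen after seeing the data. Members higher with THZ531 (20.7%) came to 10.7% and 8.67% with the same 2 scalings. Members higher with YKL5124 (5.33%) came to 3.45% with a strict count filter, 2.00% with summed rows and 2.00% to 6.00% with a library left out, lowest without YKL5124 replicate 3, and 3.33% without DMSO replicate 2 or 3. Members lower in YKL5124 than in AZ5576 (5.33%) came to 1.33% with both of these scalings, 3.33% with summed rows and 2.00% to 6.00% with a library left out, lowest without YKL5124 replicate 2 or 3. Members lower in YKL5124 than in THZ531 (31.3%) came to 20.7% and 18.0% with the 2 scalings. With summed rows the share of counts on members was 0.255% in DMSO, 0.162% in AZ5576, 0.179% in THZ531 and 0.192% in YKL5124. Of the members, 147 had 1 row, so summing rows left their counts almost unchanged while the total of human counts grew. In DMSO replicate 1 the member counts went from 107276 to 107379 and the human counts from 12518082 to 41580246. The cause of the other differences was not tested. ADRB1 with THZ531, called higher under TMM scaling, turned negative when scaled by library size or by fly counts. That value was not among the gene comparisons chosen by the naming rule. Among those comparisons, signs of log2 fold changes turned in 28 cases, all of them values that had not passed the threshold. With library size alone and fly scaling, AZ5576 gave -0.09 and -0.16 for PURB, -0.01 and -0.08 for SF3B5, and -0.10 and -0.18 for PCBP1, and THZ531 gave -0.23 and -0.30 for H1FX, -0.24 and -0.32 for PCBP1, -0.01 and -0.09 for ATP5MGL, and -0.16 and -0.23 for H3F3C. With fly scaling alone, AZ5576 gave -0.04 for ATP5MGL and YKL5124 -0.03 for SF3B5. Without a count filter PCBP1 had -0.01 with AZ5576. With a library left out, AZ5576 gave -0.04 to 0.09 for PURB and -0.03 to 0.09 for PCBP1, THZ531 gave -0.00 to 0.09 for H1FX, -0.16 to 0.03 for H1F0 and -0.01 to 0.10 for PCBP1, and YKL5124 gave -0.23 to 0.01 for RHOB, -0.00 to 0.07 for SF3B5 and -0.28 to 0.00 for DNAJC30. With a replicate block, which the numbers do not support as a pairing (2 of 12 libraries correlated best with their own number), 60.7% of members were lower with AZ5576, 46.7% with THZ531 and 54.0% with YKL5124, and 7.33%, 20.7% and 6.00% were higher. Depth limits members under 10 CPM in DMSO, 65 of 150.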
